A study of Equus caballus with 19 samples.

Results

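The interleukin-6 (IL-6) family was followed here through 10 named genes in equine tenocytes: the ligand genes IL6, IL11 and LIF, the receptor genes IL6R, IL6ST, IL11RA, LIFR and OSMR, the transcription factor gene STAT3 and its feedback inhibitor SOCS3. The rows were found by gene name alone, and the names were chosen with earlier results of these data known. Of the 10 names, 9 were among the 29196 gene names of each table, and all 9 passed the filter on low values in both batches. IL11RA, which encodes the receptor subunit that binds IL-11, was not analysed here.

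Tenocytes are the resident cells of tendon, and these were wild-type adult cells taken after death from the superficial digital flexor tendon of Thoroughbred horses, grown as 1 line per donor. Each line was embedded in gels of bovine type I collagen, which make a 3-dimensional (3D) culture, and RNA was sequenced at day 14. Lines 1 to 5 formed the first batch (10 libraries), with a control gel in plain medium and a gel with 1 nM IL-1β from each line, and lines 6 to 8 formed the second batch (9 libraries), with a control gel, a gel with 1 nM IL-1β and a gel with the same IL-1β and also 100 ng/ml IL1Ra, the antagonist that occupies the IL-1 receptor without signaling. There was no library with IL1Ra alone, and all cells had been expanded by passage in medium with fetal bovine serum.

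As background, cytokines of the IL-6 family act through receptor complexes that contain the shared subunit gp130, the product of IL6ST. IL-6 and IL-11 first bind their own receptor subunits, encoded by IL6R and IL11RA, whereas LIF pairs gp130 with the LIF receptor (LIFR) and oncostatin M pairs gp130 with OSMR or LIFR. The complexes activate Janus kinases, which phosphorylate STAT3, and STAT3 induces SOCS3, which binds gp130 and dampens the signal. In tendon, IL-6 is known as a cytokine that rises with injury and inflammation. The measurements below are of mRNA, so they do not report secreted protein or phosphorylated STAT3.

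The deposited values are counts that the authors normalised within each batch, so batches were compared only side by side. Differential expression (DE) was tested by limma after log2 transformation of the values plus 1, and p was adjusted by Benjamini-Hochberg over all 14719 genes of the first batch, or 16705 of the second, that passed the filter. Genes were called DE at an adjusted p below 0.05 together with a log2-fold change of 1 or more in size. The summed counts per library were 43.4 to 49.2 M for lines 1 to 5 and 25.0 to 34.6 M for lines 6 to 8, with M for counts in units of 1e6. The lines differed as tenocytes: SCX, MKX and COMP, which mark tendon cells, had 105, 11.5 and 131 normalised counts in the control library of line 8 against 4720.0, 4059 and 51392 in that of line 6, and TNMD was at 0 in every library of the first batch. The leukocyte markers PTPRC, CD3E, TYROBP and CSF1R were at or near 0, while CD14 and CD68 were present, and the sum of the 8 leukocyte markers was 320.2 to 2319 in control and 549 to 3972 with IL-1β (first batch). The summed tenocyte markers (9 of 10 had a value), which are mostly COL1A1 and COL1A2, were 1013330 to 1791050 in control and 425003 to 805437 with IL-1β in the first batch and overlapped in the second (237666 to 856667 against 304384 to 458712), while DCN of the same list had a higher mean with IL-1β (101598 against 61194, first batch). First-batch sums of the epithelial and muscle lists were lower with IL-1β (1415 to 3916 against 31.4 to 546, and 3235 to 12340 against 1221 to 3115), and in the epithelial list nearly all of the sum was CDH1. Their part in the changes of the IL-6 family was not tested, and in such bulk RNA fewer cells of a type and less RNA per cell cannot be told apart.

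The 3 ligand genes rose with IL-1β in the first batch, and they accounted for all 3 of the 9 genes that were DE there. IL6 rose by 8.72 on the log2 scale, LIF by 3.69 and IL11 by 2.97, each in 5 of 5 lines. Over all genes tested in this comparison 12.8% were DE, 4.91% as higher and 7.90% as lower.

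IL6, which encodes the cytokine that gives the family its name, had 232, 865, 133, 103 and 90.0 normalised counts in the control libraries of lines 1 to 5. With IL-1β it had 57342, 75848, 129720, 98574 and 60999 normalised counts. Every IL-1β library was above every control library, and line 2, the highest control, was in the middle of the IL-1β libraries. The means were 84497 ± 30032 with IL-1β and 285 ± 329 in control (SD, n = 5 lines), a 422-fold ratio of geometric means with a standard error (SE) of 0.55 on the log2 scale and an adjusted p of 7.99e-06 (limma). Within lines the log2 ratio ran from 6.45 in line 2 to 9.92 in line 3. IL6 took 0.000203% to 0.00195% of the counts of a control library and 0.117% to 0.288% of those of an IL-1β library.

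LIF encodes leukemia inhibitory factor, a cytokine known for its roles in stem cell maintenance and in inflammation. Its control libraries held 22869, 58047, 1798, 2668 and 3709.6 normalised counts in lines 1 to 5. With IL-1β the values were 131282, 126830, 90701, 79414 and 70686. All IL-1β libraries were above all control libraries, but lines 1 and 2 started far above the other 3 lines, and the control range spanned 32.3-fold. The rise of 3.69 on the log2 scale had an SE of 0.86 and an adjusted p of 0.00992 (limma), and within lines it ran from 1.13 in line 2 to 5.66 in line 3.

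IL11 encodes interleukin 11, which is known for effects on fibroblasts and matrix. Its control libraries held 38162, 114392, 9019.7, 9212 and 16552.5 normalised counts in lines 1 to 5. With IL-1β it reached 397661, 291412, 161195, 104145 and 91680.4. The control library of line 2 was above the IL-1β libraries of lines 4 and 5, so the groups overlapped, although each line rose. The log2-fold change of 2.97 had an SE of 0.71 and an adjusted p of 0.0111 (limma). IL11 took up to 0.808% of the counts of an IL-1β library, in line 1. A second gene, FAM71E2, followed IL11 from library to library at 10.9% to 13.8% of its count in the first batch, and RefSeq's gene table for a newer assembly places it directly beside IL11.

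The top of the control order was shared by the 3 ligands. In control, line 2 was highest and line 1 second for IL6, LIF and IL11, and line 2 had the smallest rise with IL-1β for each of the 3. Lines 3 and 4, with the lowest LIF and IL11 in control, had the largest rises of all 3 ligands. With IL-1β the order differed: line 1 was the lowest for IL6 and the highest for LIF and IL11. The same control libraries differed in tendon markers: SCX was 822 and 1075 normalised counts in lines 1 and 2 and 1516 to 2110 in lines 3 to 5, and COMP was 5057 and 18303 against 35427 to 104386. Each rise is a ratio to the same control library, so the order of the rises is not independent of the control order. These are values of 5 lines set side by side, with no test.

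**Figure D1:**
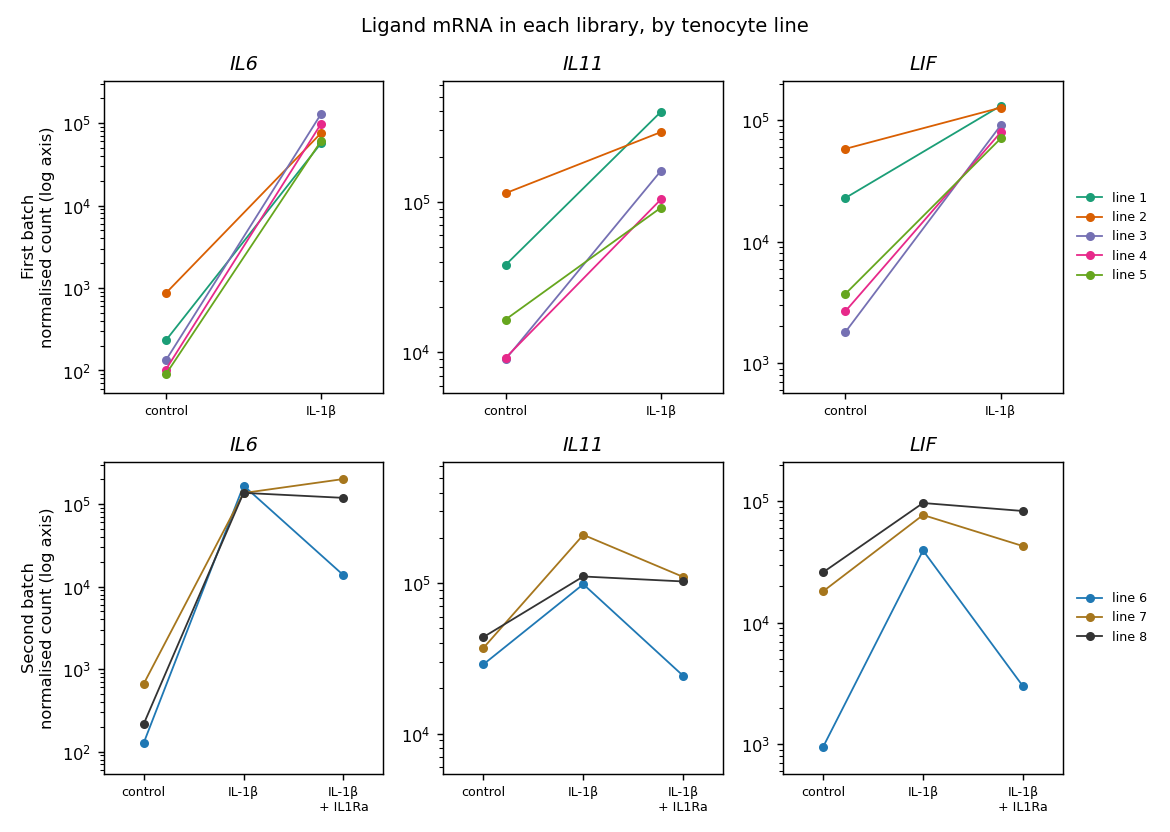
Normalised counts (log axis) of IL6, IL11 and LIF in each library, with 1 point per library and 1 colored line per tenocyte line. The upper row shows the first batch (control and IL-1β, lines 1 to 5) and the lower row the second batch (control, IL-1β and IL-1β + IL1Ra, lines 6 to 8). IL6 rises from at most 865 to at least 57342 in the first batch, and line 6 is the lowest of the 3 lines with IL1Ra for each ligand.

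None of the 4 receptor genes measured was DE with IL-1β in the first batch, and their changes were small beside those of the ligands. The log2-fold changes were 0.49 for IL6R, −0.54 for IL6ST, −0.37 for LIFR and −0.73 for OSMR. OSMR was lower in 5 of 5 lines and IL6ST in 4 of 5.

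OSMR encodes the oncostatin M receptor subunit. In lines 1 to 5 it had 2922, 2878, 4191.5, 5261 and 4137 normalised counts in control and 1537, 2601, 1929, 4173 and 1905 with IL-1β. Each line was lower with IL-1β, but line 4 with IL-1β was above 3 of the 5 controls and the groups overlapped. The adjusted p was 0.0652 (SE 0.27), and with the line as a block it was 0.0133 (limma in both), at a fold below the threshold.

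IL6ST encodes gp130, the subunit that all 3 ligands share. Its control values were 11059, 7961, 16906, 18666 and 16027 normalised counts, and with IL-1β they were 11433, 7499, 10492, 9071 and 8340.0. Lines 3 to 5 had the highest controls and had log2 ratios of −0.69, −1.04 and −0.94, while lines 1 and 2 had 0.05 and −0.09. The adjusted p was 0.103 without the block and 0.0490 with it (limma), again below the fold threshold.

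IL6R encodes the subunit that binds IL-6. It had 145, 201, 140, 187 and 216 normalised counts in control and 349.8, 205, 279.9, 258 and 176 with IL-1β. Line 5 was lower with IL-1β and the other 4 lines were higher, with an adjusted p of 0.128 (SE 0.22, limma).

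LIFR, the gene of the LIF receptor, had 823, 644, 669, 628 and 656 normalised counts in control and 602, 414, 642, 688 and 366 with IL-1β. It was lower in 4 of 5 lines with an adjusted p of 0.174 (SE 0.19, limma). LIFR and OSMR lie beside each other in RefSeq's gene table for a horse assembly newer than the authors', with 0 protein-coding genes between them.

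In all 5 lines SOCS3 was higher and STAT3 lower with IL-1β. Both had an adjusted p below 0.05 and a fold below the threshold for DE. By the adjusted p alone 5 of the 9 genes passed, where 27.7% of all genes tested passed. SOCS3, the feedback inhibitor, had 3322, 2371, 3480.4, 3008 and 3285 normalised counts in control and 6190.0, 3856, 4403, 4181 and 4221 with IL-1β. The groups did not overlap, and the log2-fold change was 0.55 (SE 0.14, adjusted p = 0.0168, limma). STAT3, the factor that induces SOCS3, had 8899, 6322, 8701, 8089 and 7732.5 normalised counts in control and 4641, 5409, 7674, 5484 and 3952 with IL-1β. The control of line 2 was below the IL-1β library of line 3, and the log2-fold change was −0.57 (SE 0.17, adjusted p = 0.0270, limma). The groups did not overlap for IL6, LIF and SOCS3, which is 3 of the 9 genes, against 19.5% of all genes tested.

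**Figure D2:**
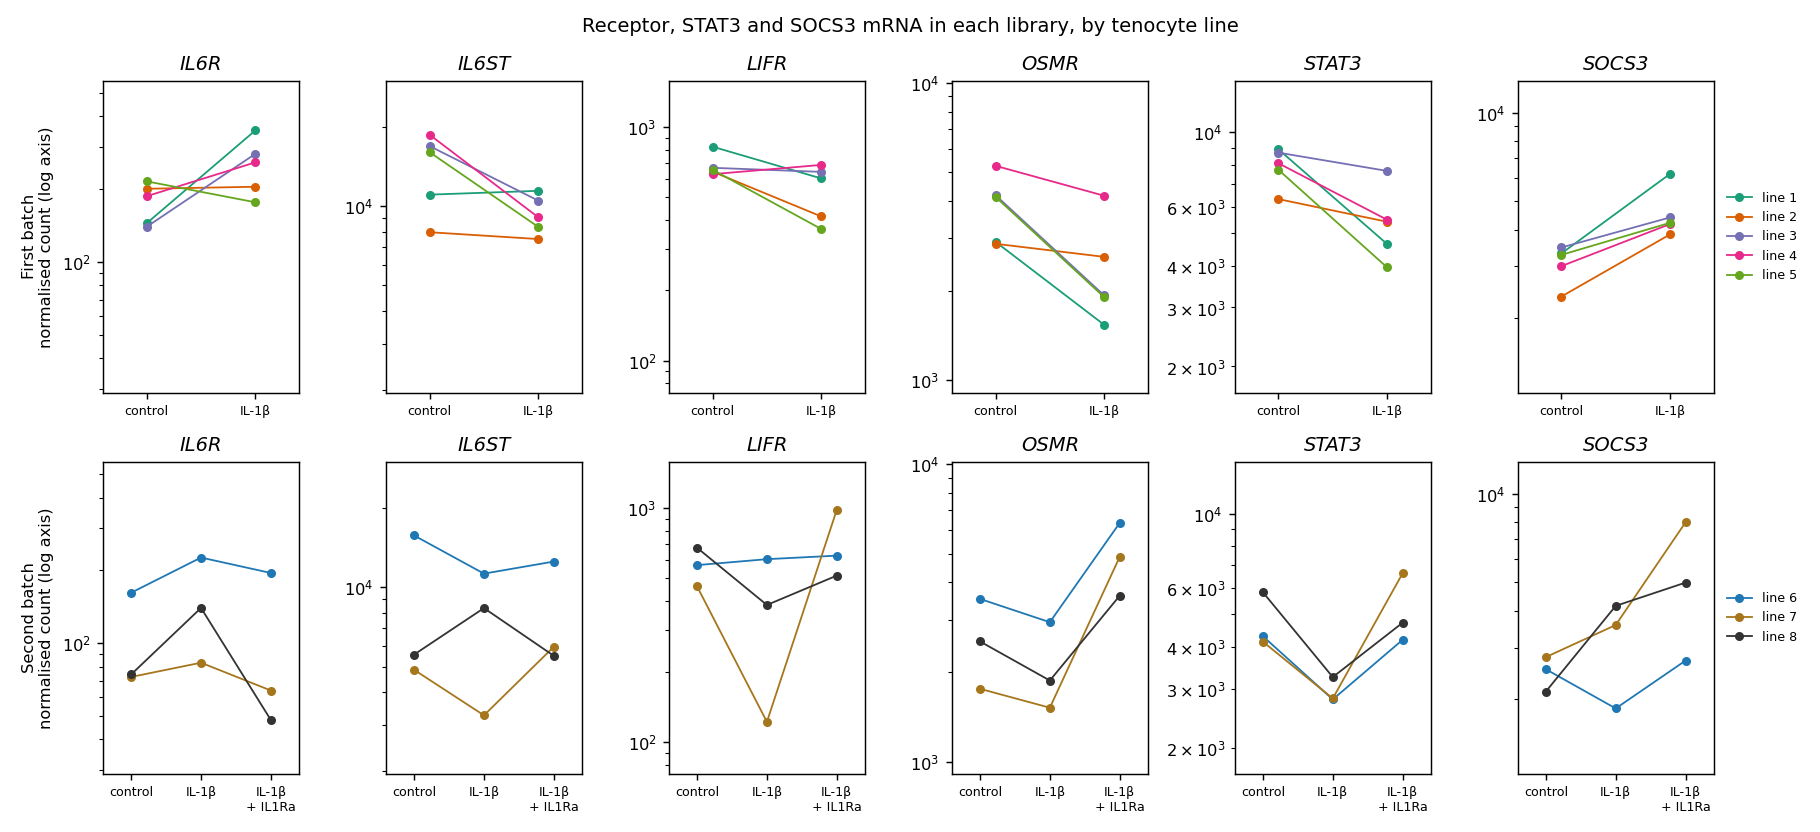
Normalised counts (log axis) of the 4 receptor genes, STAT3 and SOCS3 in each library, with 1 point per library and 1 colored line per tenocyte line. The upper row shows the first batch and the lower row the second batch. OSMR and STAT3 are lower in every line with IL-1β than in control, and higher in every line with IL-1β + IL1Ra than with IL-1β alone.

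With IL-1β in the second batch IL6 was the 1 gene of the 9 that was DE, where 0.341% of all genes tested were DE. In lines 6 to 8 it had 127, 663 and 216 normalised counts in control and 168090, 136543 and 137101 with IL-1β. The IL-1β libraries lay within 1.23-fold of each other, while the controls spanned 5.21-fold. The log2 ratio within lines was 10.36, 7.68 and 9.30.

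LIF and IL11 were also higher with IL-1β in all 3 lines, and for both every IL-1β library was above every control. LIF had 951, 18159 and 26054 normalised counts in control and 39391, 77155 and 96872 with IL-1β. Line 6 had by far the lowest control and the largest log2 ratio, 5.37 against 2.09 and 1.89 in lines 7 and 8. The mean log2-fold change of LIF was 3.12 with an SE of 1.495 and an adjusted p of 0.481, and with the line as a block the SE was 0.70 and the adjusted p 0.0453, so LIF was DE with the block (limma). IL11 had 28851.5, 37102 and 43812 normalised counts in control and 98345, 209360 and 110695 with IL-1β. Its log2-fold change was 1.87 with an SE of 0.62 and an adjusted p of 0.283 (0.0662 with the block, limma). With the block 2 of the 9 genes were DE, against 5.18% of all genes tested.

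The mean changes of the 4 receptor genes had the same signs as in the first batch, and none was DE. IL6R had 162, 72.5 and 74.3 normalised counts in control and 226, 83.0 and 139.9 with IL-1β, higher in 3 of 3 lines. OSMR had 3519, 1755 and 2533 normalised counts in control and 2939, 1517 and 1872 with IL-1β, lower in 3 of 3 lines. IL6ST had 15732, 4859.8 and 5553 normalised counts in control and 11269, 3264 and 8339 with IL-1β. Line 6 had the highest IL6R and IL6ST of the 3 lines in both conditions, and the mean change of IL6ST, −0.16, turned to 0.0062 without line 6. LIFR had 570.5, 463 and 677 normalised counts in control and 605, 122 and 385 with IL-1β, with log2 ratios of 0.08, −1.92 and −0.81.

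STAT3 was lower with IL-1β in all 3 lines, and its groups did not overlap. It had 4302, 4142.5 and 5820.4 normalised counts in control and 2785, 2805 and 3248 with IL-1β (log2-fold change −0.68, SE 0.22, adjusted p = 0.280, limma). SOCS3 had 2533, 2786 and 2128 normalised counts in control and 1864, 3581 and 4159 with IL-1β, lower in line 6 and higher in lines 7 and 8. The groups were apart for IL6, LIF and IL11 on the higher side and STAT3 on the lower side, 4 of the 9 genes, against 16.4% of all genes tested. With 3 lines per condition the calls rested on few libraries: leaving out line 7 or line 8 raised the adjusted p of IL6 to 0.342 or 0.671 (limma), although its log2-fold change stayed at 9.83 or 9.02.

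**Figure D3:**
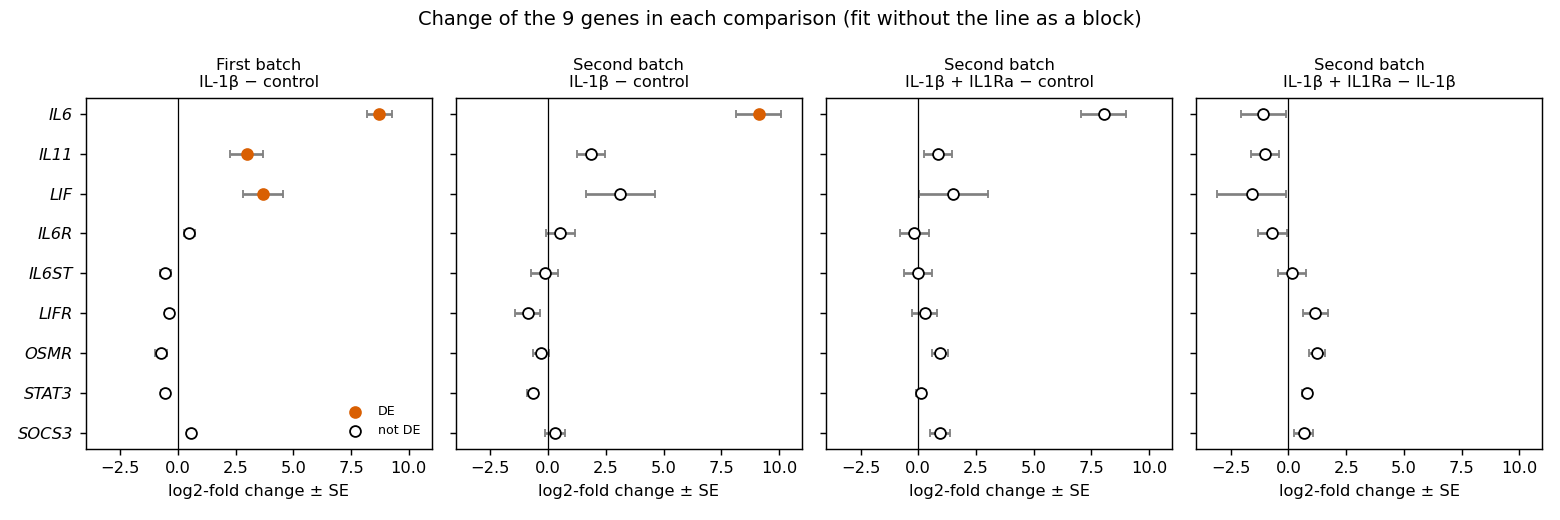
Log2-fold change (points) and standard error (bars) of the 9 genes in the 4 comparisons, from the fit with no block. Filled points are DE genes (adjusted p under 0.05 and at least 1 in either direction), which are IL6, IL11 and LIF in the first batch and IL6 in the second. OSMR (1.25) and LIFR (1.16) lie furthest right for IL-1β + IL1Ra minus IL-1β, without being DE.

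IL1Ra added to IL-1β left IL6 far above control in all 3 lines, but the lines differed widely. IL6 had 13776, 201720 and 119246 normalised counts in lines 6 to 8 with IL-1β + IL1Ra, every one above every control library. The log2 ratio to IL-1β alone was −3.61 in line 6, 0.56 in line 7 and −0.20 in line 8. The mean of the 3 was −1.08, and it turned to 0.18 without line 6. Against control the log2-fold change was 8.03 (SE 0.97, adjusted p = 0.0779, limma), and with the line as a block it was DE with an adjusted p of 0.0210. Without the block 0 of the 9 genes were DE against control, where 0.0120% of all genes tested were DE, and with the block IL6 was the 1 gene, against 0.251%.

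Line 6 stood apart from lines 7 and 8 in the same direction for the 3 ligands. LIF with IL-1β + IL1Ra had 3005, 42811 and 83240 normalised counts, and the log2 ratio to IL-1β alone was −3.71 in line 6, −0.85 in line 7 and −0.22 in line 8. IL11 had 24213.5, 110003 and 102589 normalised counts, which for line 6 is below its own control of 28851.5. On the log2 scale, as the share of the difference between IL-1β and control that was left with IL1Ra, IL6 kept 65.1%, 107% and 97.8% in lines 6 to 8 (mean 90.1% ± 22.1, SD, n = 3 lines). LIF kept 30.9%, 59.3% and 88.5% (59.5% ± 28.8), and IL11 kept −14.3%, 62.8% and 91.8% (46.8% ± 54.8). The change from that difference was in the same direction in 3 of 3 lines for LIF and IL11, for each of which the two-sided exact sign-flip permutation test gave p = 0.25, the smallest that 3 lines allow, and in 2 of 3 lines for IL6 (exact p = 0.75). Line 6 was also the line with clear tendon markers: SCX had 4720.0 normalised counts in its control, 278 with IL-1β and 1523 with IL-1β + IL1Ra. In lines 7 and 8 SCX had 266 and 105 in control, 43.5 and 13.6 with IL-1β, and 30.2 and 10.5 with IL-1β + IL1Ra. The part of this difference between lines in the ligand values was not tested.

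OSMR and STAT3 were the genes whose libraries with IL-1β + IL1Ra were all above those with IL-1β alone. OSMR had 6336, 4871 and 3607 normalised counts in lines 6 to 8 with IL-1β + IL1Ra, which was above every control as well. It was higher than with IL-1β by 1.11, 1.68 and 0.95 on the log2 scale and higher than control by 0.85, 1.47 and 0.51. The mean differences were 1.25 against IL-1β (adjusted p = 0.9999 without the block and 0.167 with it, limma) and 0.94 against control (adjusted p = 0.822 and 0.140). STAT3 had 4198, 6633 and 4721 normalised counts, higher than with IL-1β by 0.59, 1.242 and 0.54. Its log2 ratios to control were −0.04, 0.68 and −0.30, and their mean of 0.11 turned to −0.17 without line 7. No gene among the 9 was DE between IL-1β + IL1Ra and IL-1β, as was the case for 0% of the 16705 genes (464 had an unadjusted p under 0.05, among them 2 of the 9 genes), and with the block 0.00599% of genes were DE and again none of the 9.

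LIFR, SOCS3, IL6R and IL6ST with IL-1β + IL1Ra overlapped with both other conditions, and none was DE. With the antagonist present LIFR had 626, 982.5 and 514 normalised counts in lines 6 to 8, and line 7 was 3.00 above its IL-1β library on the log2 scale while line 6 differed by 0.05. SOCS3 had 2711, 8000.1 and 4990.4 normalised counts, higher than both other conditions in each line, by 1.16 over IL-1β in line 7 and by 0.54 and 0.26 in lines 6 and 8. IL6R had 195, 63.7 and 48.1 normalised counts, lower than with IL-1β in 3 of 3 lines. IL6ST had 12527, 5946 and 5492, with no common direction. Groups did not overlap for IL6 and OSMR against control (2 of 9 genes, against 11.8% of all genes tested) and for OSMR and STAT3 against IL-1β (2 of 9, against 6.47%). The comparisons of the second batch share their control and IL-1β libraries, so these counts are not independent of each other.

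The wider pathway was read from 26 further genes, of which 20 passed the filter. In the first batch 0 of the 20 were DE as higher with IL-1β and 3 were DE as lower: SOCS2, CISH and ERRFI1. The mean change was upward for 12 of the 20 and downward for 8. The median log2-fold change of the list was 0.16, beside 0.00 (−0.0034) over all genes tested. With 12.8% of all genes DE and 7.90% DE as lower, a count of 3 among 20 is near the background and is no result about the list.

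Of the 7 other ligand or ligand-partner genes 3 were tested, and 0 were DE in either batch. CLCF1, a cardiotrophin-like cytokine, had a log2-fold change of 0.60 in the first batch, CNTF, the ciliary neurotrophic factor, of 0.23, and CTF1, cardiotrophin 1, of −0.03. OSM, the ligand of OSMR, did not pass the filter: it had at most 0.96 normalised counts in any first-batch control, 2.02 to 26.4 with IL-1β, and 0, 3.10 to 14.8 and 1.99 to 7.40 in the 3 conditions of the second batch. IL27, EBI3 and IL31 were at or below 8.55 normalised counts in every library but 1, a library with IL-1β + IL1Ra that held 37.9 for IL27.

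Among the 3 other receptor genes IL27RA, a gp130 partner, was tested, with a log2-fold change of −0.40 (lower in 5 of 5 lines, adjusted p = 0.0548, limma). CNTFR and IL31RA were at or below 9.09 and 13.3 normalised counts in every library. The 6 genes of kinases, the phosphatase PTPN11 and the shedding enzymes ADAM10 and ADAM17, which release IL6R from cells, lay between −0.36 and 0.58, and 0 were DE. The 3 other STAT genes lay between 0.15 and 0.36.

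The 3 genes that were DE as lower are inhibitors other than SOCS3. SOCS2 and CISH belong to the SOCS family and are known as STAT5 targets that restrain growth hormone and prolactin signaling. SOCS2 had 1956 to 4262 normalised counts in control and 309.9 to 1052 with IL-1β (log2-fold change −2.31, SE 0.37, adjusted p = 0.00166, limma). CISH had 44.1 to 165 normalised counts in control and 23.7 to 48.8 with IL-1β (log2-fold change −1.64). ERRFI1, a feedback inhibitor of the epidermal growth factor receptor rather than of gp130, had 4136 to 14356 normalised counts in control and 2308.5 to 4403 with IL-1β (log2-fold change −1.39). With the block 4 genes of the list were DE as lower. The added gene was SOCS1, named after its values were seen, with a log2-fold change of −1.45 (adjusted p = 0.0268, limma). The mean of SOCS3 was thus higher with IL-1β while those of SOCS1, SOCS2 and CISH were lower. In line 3, however, SOCS1 had 114.9 normalised counts with IL-1β and 108.7 in control. With the block 16.2% of all genes tested were DE, and 3 of the 9 IL-6 family genes, again IL6, IL11 and LIF.

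In the second batch the mean log2-fold changes of these inhibitors with IL-1β were −0.97 for SOCS2, −1.23 for CISH, −1.48 for ERRFI1 and −2.50 for SOCS1, and 0 of the 20 genes were DE with or without the block. Lines differed: the log2 ratio of SOCS2 ran from −2.12 in line 6 to −0.12 in line 8, and CISH in line 6 had 37.8 normalised counts with IL-1β and 37.5 in control. With IL-1β + IL1Ra SOCS2 had 990.1, 1019 and 1327 normalised counts in lines 6 to 8 beside 328, 516 and 597 with IL-1β, higher in 3 of 3 lines by a mean of 1.242 on the log2 scale (adjusted p = 0.9999, limma). SOCS1 was also higher in 3 of 3 lines, with 50.0, 714.5 and 114.5 beside 24.0, 82.7 and 22.0. CISH differed little (43.3, 46.0 and 24.1 beside 37.8, 44.4 and 22.4), and ERRFI1 was higher in lines 6 and 8 and lower in line 7.

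Known STAT3 target genes were read from a list of 20, of which 15 were tested. In the first batch 3 of the 15 were DE as higher and 0 as lower, where 4.91% of all genes tested were DE as higher and 7.90% as lower. The mean change was upward for 7 of the 15 and downward for 8, and the median log2-fold change was −0.08. CEBPB, a transcription factor of the acute-phase response, had 6687 to 11767 normalised counts in control and 19553 to 32714 with IL-1β (log2-fold change 1.54, SE 0.18, adjusted p = 3.01e-04, limma). IL4R, a receptor subunit for IL-4 and IL-13, had 7805 to 11026 normalised counts in control and 30248 to 42833 with IL-1β (log2-fold change 1.93). ICAM1, an adhesion molecule that is also a classical target of other inflammatory signals, had 752 to 3895 normalised counts in control and 4288 to 9077.5 with IL-1β (log2-fold change 2.03). The 4 listed acute-phase genes with a value, LBP, FGG, FGB and A2M, which liver cells express, did not pass the filter.

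Without the block 0 of the 15 target genes were DE with IL-1β in lines 6 to 8, and with it CEBPB (1.48, adjusted p = 0.0213) and IL4R (1.29, adjusted p = 0.0474) were (limma), where 0.341% of all genes tested were DE without the block and 5.18% with it. ICAM1 with IL-1β + IL1Ra had 1518, 26342 and 21624 normalised counts in lines 6 to 8, beside 474, 4055 and 7673 in control. With IL-1β alone it had 2815, 4974 and 6192, which for line 8 is below its control. Lines 7 and 8 were thus higher with IL-1β + IL1Ra than with IL-1β alone, and line 6 was lower. IL4R with IL-1β + IL1Ra had 7001, 22136 and 22268 and CEBPB 7161, 14667 and 18963. For these 3 genes line 6 was the lowest line in all 3 conditions, control included.

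**Figure D4:**
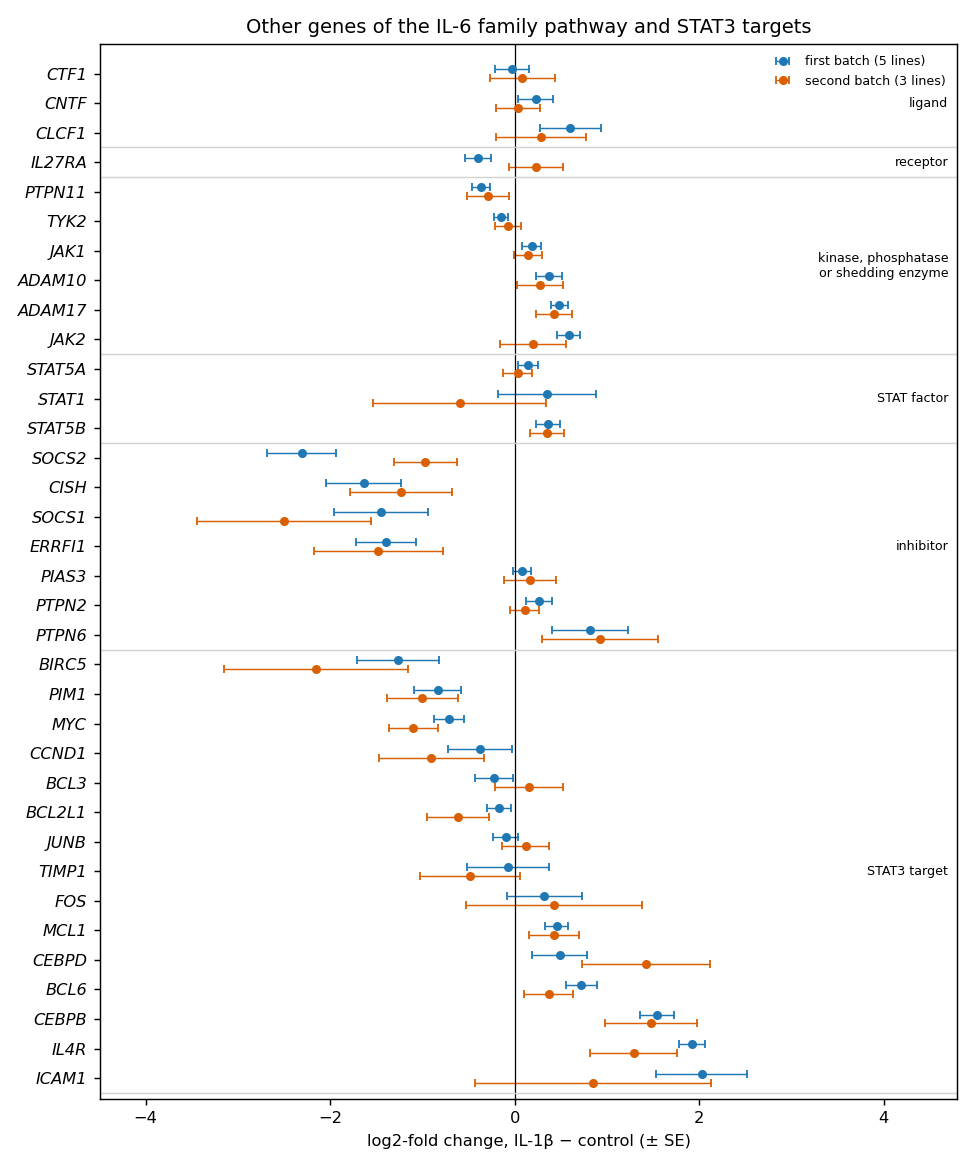
Log2-fold change (points) with standard error (bars) of IL-1β minus control for the 20 tested genes of the wider pathway and the 15 tested STAT3 target genes, by role, in the first batch (blue) and the second batch (orange). SOCS2, CISH, SOCS1, ERRFI1 and the STAT3 target BIRC5 lie left of −1 in the first batch, and CEBPB, IL4R and ICAM1 lie right of 1.

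Genes with a similar pattern over the 10 first-batch libraries were ranked, with rows named only by a LOC number left out. Those most like IL6 were CXCL1 (Pearson r = 0.991 of log2 values), SLC11A2 (0.991) and MIP-2BETA (0.990). Over the 9 second-batch libraries r was 0.935, 0.956 and 0.947. CXCL1 and MIP-2BETA encode chemokines, a family of similar genes among which reads may have been split, and SLC11A2 encodes an iron transporter. For LIFR the closest genes were XIAP (0.946), RPP14 (0.936) and YY1 (0.928), and over the second batch r was 0.752, −0.38 and 0.361. These libraries share the treatment contrast, so the values are descriptions.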

How the data were processed

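RNA from 19 gels of 8 equine tenocyte lines was sequenced in 2 batches. The authors quantified reads against EquCab3.0 transcripts by Salmon, and gene sums from tximport were normalised per batch by DESeq2 1.36 in R 4.2.1. The deposited signal values are these normalised counts, 1 table per batch. Whole reads were not recovered, so limma 3.58.1 in R 4.3.3 (lmFit, eBayes with trend) was run on log2(normalised count + 1) within a batch, in place of a count model. Tested genes had 10 or more normalised counts in 5 or more libraries of the first batch or 3 or more of the second, and the second batch was 1 fit of 3 conditions. All 19 columns were matched to a sample. The fit was tested on simulated data.

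The members and the lists of pathway, target and marker genes were chosen with earlier results of these data known, and 1 item is not reported here. The text names all members, list genes that were DE without the block or are ligands or receptors, and the 3 genes most correlated with IL6 and LIFR. That ranking left out rows named only by a LOC number. CTF1, STAT5B and A2M were matched by RefSeq gene ID, and IL11RA, HP and COL3A1 were not matched. Libraries of 1 line share a donor, so line numbers pair them: deviations from condition means correlated within lines at 0.351 to 0.578 (first batch, 5 pairs) and at 0.535 to 0.794 (second batch, 9 pairs). Replicates are separate donor lines, and pairs within a condition correlated at 0.912 to 0.977 and 0.850 to 0.954. Alternatives were other pseudocounts (0.5 and 10), no filter, equal sums, no trend, the line as a block, the adjusted p alone, 2 conditions only, and each line left out. No sequences or coordinates are given, since the reference table was of a newer assembly.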

Additional observations from a re-analysis of the deposited data

Results flagged for a closer look

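A lone extreme library was looked for on the log2 scale in 27 groups of values, and chance gives one in about 1 of 20 groups. LIFR in the first-batch control was highest in line 1, with 823 normalised counts against a group median of 656, and the gap to the next library was 0.769 of the whole range of log2 values. SOCS3 with IL-1β in the first batch was also highest in line 1, with 6190.0 normalised counts against a median of 4221 and a gap of 0.720 of the log2 range. Both lie past Dixon's 95% limit for 5 values. Groups of 3 libraries were not examined in this way.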

How the results depend on the processing

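The first-batch count of DE members was 3 under each alternative except the adjusted p alone, which gave 5 members and 4078 genes against 1885. With the tenocyte line as a replicate block the second batch gave 2 DE members and 865 genes for IL-1β against control (1 and 57 without it), 1 and 42 for IL-1β + IL1Ra against control (0 and 2), and 0 and 1 for IL-1β + IL1Ra against IL-1β (0 and 0). The block made LIF DE with IL-1β and IL6 DE with IL-1β + IL1Ra and changed no other call of a member. For IL-1β against control 34 genes were DE without trend and 34 with only the 2 conditions compared. For IL-1β + IL1Ra against control 1 gene was DE with equal sums and 0 with only the 2 conditions compared. Leaving out 1 line of the second batch gave 0 to 1 DE members and 0 to 324 genes, 0 to 1 members and 0 to 36 genes, and 0 to 10 genes in the 3 comparisons, and IL6 with IL-1β + IL1Ra was DE without line 6 (8.67, adjusted p = 0.0121, limma). The sign turned for genes with small changes when a line of the second batch was left out. For IL-1β against control the log2-fold change ran from −0.53 to 0.052 for IL6ST (0.0062 without line 6, 0.052 without line 7) and from −0.040 (without line 8) to 0.66 for SOCS3. For IL-1β + IL1Ra against control it ran from −0.40 to 0.043 (without line 8) for IL6R, from −0.17 to 0.14 (without line 6) for IL6ST, from −0.13 (without line 7) to 0.61 for LIFR and from −0.17 (without line 7) to 0.32 for STAT3. For IL-1β + IL1Ra against IL-1β it ran from −1.91 to 0.18 (without line 6) for IL6 and from −0.22 (without line 7) to 0.51 for IL6ST. Of the values of single genes, 389 kept direction and call, 5 gained a call, 2 lost one (IL6 with IL-1β without line 7 or line 8 of the second batch) and 9 turned. Equal sums moved the median of all genes with IL-1β in the second batch from −0.01 to −0.19 and that of IL-1β + IL1Ra against IL-1β from 0.01 to 0.11. With 3 lines per condition, p-values there rest on little replication, and depth per gene beyond the normalised counts is unknown.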

Other observations

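FAM71E2 was chosen after its values were seen, because its log2 values followed IL11 most closely among genes not named only by a LOC number. Here r was 0.998 over 10 first-batch libraries and 0.985 over 9 second-batch libraries, which share the treatments. It had 987 to 45660 normalised counts in the first batch, 10.9% to 13.8% of IL11 in each library, and 4593 to 29850.0 in the second, 14.3% to 20.6% of IL11. In RefSeq's gene table for a horse assembly newer than the authors' GARIN5B, the current symbol of FAM71E2, is the gene directly beside IL11. Whether reads of one gene were assigned to the other was not tested, so both values are uncertain to that extent.

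The highest level of SOCS1 in the second batch was in line 7 with IL-1β + IL1Ra, 714.5 normalised counts beside 82.7 with IL-1β and 190.4 in control. In the same library SOCS3 (8000.1 normalised counts), LIFR (982.5) and IL6 (201720) were at their highest in the second batch. BIRC5, a survival gene of the target list named after its values were seen, was DE as lower in the first batch with the line as a block (−1.27, adjusted p = 0.0138, limma) and not without it (0.0577).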
